A study of Mus musculus with 12 samples.

Results

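Immediate-early genes are the first genes that cells transcribe after a growth factor, a cytokine, or a stress. Of these, 10 were followed here through LK cells, the lineage-negative and cKit-positive fraction of mouse bone marrow that holds hematopoietic stem and progenitor cells. *Fos*, *Fosb*, *Jun*, *Junb*, *Jund*, and *Atf3* encode subunits of the dimeric AP-1 family of transcription factors. *Egr1* encodes a zinc finger transcription factor, *Nr4a1* encodes an orphan nuclear receptor, *Ier2* encodes a nuclear protein of the immediate-early response, and *Dusp1* encodes a phosphatase that inactivates MAP kinases. The 10 genes were taken by symbol, with no limit set on their values, and are 10 of the 55291 genes of the deposited count table. Earlier results of these data were known when they and the lists below were chosen, which limits what their shares beside all genes can show. All 10 passed the filter on low counts and are among the 15825 genes tested.

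RNA was sequenced from LK cells of 12 C57BL/6 mice aged 12 months, with 3 mice of each of 4 genotypes and 1 library per mouse. WT mice carried neither lesion. *Kdm6b*Δ/+ mice had lost 1 allele of *Kdm6b*, which encodes a demethylase of histone H3 lysine 27. *Asxl1Y588X*Tg mice carried a transgene for a truncated ASXL1 protein and were preleukemic at this age, and *Asxl1Y588X*Tg *Kdm6b*Δ/+ mice carried the transgene and the deletion together. The deletion was made by *Mx1Cre*, a Cre transgene that injected pI:pC switches on by inducing interferon, and it is not limited to LK cells. Whether the WT and *Asxl1Y588X*Tg mice of this experiment carried *Mx1Cre* or received pI:pC, and the promoter of the *Asxl1* transgene, are not given in the sources used here. Cells of mature lineages were depleted and cKit-positive cells then selected on magnetic beads, to a purity that the methods give as high, and the time from harvest to lysis is not given in the sources used here either.

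In unstimulated cells the immediate-early genes are kept low. Signals that pass through the ERK, JNK, and p38 MAP kinases act on factors already bound at their promoters, such as SRF with its ELK partners and CREB, so that transcription starts without new protein synthesis. The mRNAs are short-lived, and several of the products, DUSP1 and the mRNA-binding protein ZFP36 among them, shut the response down again. FOS proteins bind DNA only as dimers with JUN proteins, whereas JUN proteins also pair with each other. In blood stem cells, EGR1 and JUNB are known for their links to quiescence and to restraint of proliferation. The same genes are also known to be induced when tissue is dissociated or cells are sorted.

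The labels were checked first on *Kdm6b* (chromosome 11, 69398508 to 69413675 of mm10), read here as the normalized count, in which reads are scaled to a common library size by TMM. Its WT values were 2142, 2372, and 1869, against 1622, 1529, and 1346 in *Kdm6b*Δ/+. The *Asxl1Y588X*Tg libraries held 2270.4, 2303, and 2187, and the *Asxl1Y588X*Tg *Kdm6b*Δ/+ libraries 1649, 1873, and 1909. Each group with the deletion lay below its comparison group without overlap, at log2 fold changes of −0.51 (standard error 0.11, edgeR adjusted p = 0.279) and −0.30 (standard error 0.07, edgeR adjusted p = 0.0717), neither past the threshold. Over all genes tested, 4.8% and 14.1% also lay lower without overlap in these comparisons. The *Asxl1Y588X*Tg *Kdm6b*Δ/+ libraries were not separated from WT by *Kdm6b*, with overlap and a log2 fold change of −0.22 (standard error 0.10, edgeR adjusted p = 0.737). *Asxl1*, the gene of the transgene, did not separate the genotypes: its normalized count was 2545, 3081, and 2762 in WT and 2906, 3060.4, and 3034 in *Asxl1Y588X*Tg, with overlap and a log2 fold change of 0.10 (standard error 0.09, edgeR adjusted p = 0.836). *Kit*, which defines LK cells, had a normalized count of 6094 ± 299.8 (SD, n = 3) in WT and between 6089.6 and 6892 on average in the other genotypes, and all 10 LK marker genes listed for this check had counts. Neutrophil genes were also abundant, with the 10 listed genes taking 5.96% of all counts and *S100a9* alone a mean normalized count of 277945.

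The depth ran from 14451522 to 23482563 counted reads per library. A pair of WT libraries stood apart. Only 18630 genes had a count in WT replicate 1, although 19208274 reads were counted, against 20400 genes in *Kdm6b*Δ/+ replicate 1 and 22727 to 25380 in the remaining libraries. WT replicate 2 was furthest from its own genotype in its counts: the chi-square per gene between replicates, near 1 under counting noise alone, was 33.0 and 28.5 for its pairs, against 7.84 to 19.2 for all other pairs within a genotype. Comparisons with WT were therefore refitted without each of these libraries. Y-linked transcripts were present in 0 of 3 WT, 2 of 3 *Kdm6b*Δ/+, 1 of 3 *Asxl1Y588X*Tg, and 3 of 3 *Asxl1Y588X*Tg *Kdm6b*Δ/+ libraries, so that sex and genotype cannot be told apart in the comparison of *Asxl1Y588X*Tg *Kdm6b*Δ/+ with WT. The libraries are of bulk RNA, in which a change in the share of a cell type and a change in RNA per cell cannot be told apart.

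Promoter sequence of the start regions was read from RefSeq (GRCm38.p6), which held 8 of the 10 genes and lacked *Egr1* and *Ier2*. The 4 stretches printed here, each from 150 bases before the RefSeq start to the base before it (a start that lies away from the GENCODE gene start for *Junb* and *Nr4a1*) and free of exons in GENCODE, belong to *Fos* and *Jun*, the founding AP-1 genes, and to *Junb* and *Nr4a1*, the genes that passed the test below. Capitals mark TGACG or its reverse complement CGTCA, the half-site of the cAMP response element that CREB and ATF proteins recognize. The coordinates are chr12:85473740-85473889 on the plus strand for *Fos*, chr4:95052223-95052372 on the minus strand for *Jun*, chr8:84978749-84978898 on the minus strand for *Junb*, and chr15:101266696-101266845 on the plus strand for *Nr4a1*.
Fos: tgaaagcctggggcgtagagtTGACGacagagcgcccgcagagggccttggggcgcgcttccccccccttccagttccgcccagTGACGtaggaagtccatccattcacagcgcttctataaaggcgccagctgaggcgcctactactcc
Jun: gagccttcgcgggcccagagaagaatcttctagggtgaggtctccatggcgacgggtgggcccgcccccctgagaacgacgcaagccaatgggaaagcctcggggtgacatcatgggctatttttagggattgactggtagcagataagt
Junb: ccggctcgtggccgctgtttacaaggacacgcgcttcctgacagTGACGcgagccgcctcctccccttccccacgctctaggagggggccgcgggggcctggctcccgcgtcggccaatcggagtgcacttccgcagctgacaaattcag
Nr4a1: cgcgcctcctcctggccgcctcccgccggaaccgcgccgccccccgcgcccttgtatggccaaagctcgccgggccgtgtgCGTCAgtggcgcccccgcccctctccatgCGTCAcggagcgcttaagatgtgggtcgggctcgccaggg

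In the 250 bases before the start, TGACG on either strand was found in 6 of the 8 promoters (*Fos*, *Fosb*, *Junb*, *Atf3*, *Nr4a1*, and *Dusp1*), against 17.6% of all 27025 RefSeq promoters in the same window. *Nr4a1* held 4 copies and *Fos* 2, with the nearer *Fos* copy from base −66 to −62. GGGCGG on either strand, the core of the GC box, was found in 6 of 8, against 32.7% of all promoters. TATAAA on the coding strand was found only in *Fos*, from base −33 to −28, against 8.1% of all promoters. The CArG box, the recognition sequence of SRF, was found in 0 of 8 within this window, against 1.4% of all promoters. The RefSeq start also lies away from the GENCODE gene start for *Jund*, *Atf3*, and *Dusp1*, and the 150 bases before it hold GENCODE exons of the same gene for *Fosb*, *Atf3*, and *Dusp1*, so the counts of 8 rest in part on windows that may not be the promoter in use. These matches describe letters in a short window and do not show binding.

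*Fos* (chromosome 12, 85473890 to 85477273) had the highest level per length of the 10 genes in every genotype, at 3822 ± 2030.5 normalized counts per kilobase of merged exon (SD, n = 3) in WT. Its normalized count was 13671, 4125, and 9171 in WT replicates 1 to 3, so that WT mice alone spanned 3.31-fold. The *Kdm6b*Δ/+ libraries held 6264, 4109.8, and 4322, and the *Asxl1Y588X*Tg libraries 12182, 17470.5, and 8373. The counts were 9433, 6088, and 3875 in *Asxl1Y588X*Tg *Kdm6b*Δ/+. The groups overlapped in all 4 pairs tested, while the *Kdm6b*Δ/+ libraries, a pair not tested here, lay below those of *Asxl1Y588X*Tg. Among these pairs the largest log2 fold change was between *Asxl1Y588X*Tg *Kdm6b*Δ/+ and *Asxl1Y588X*Tg, −0.96 (standard error 0.45, edgeR adjusted p = 0.422), and it did not pass the threshold.

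*Fosb* (chromosome 7, 19302696 to 19310051), a second FOS protein, had 3069, 2035, and 1742 normalized counts in WT and 2464, 2123, and 1542 in *Kdm6b*Δ/+. In *Asxl1Y588X*Tg it had 3241, 5700.1, and 2154, and in *Asxl1Y588X*Tg *Kdm6b*Δ/+ 3801, 2899.7, and 1683. *Asxl1Y588X*Tg replicate 2 was the highest of all 12 libraries, and *Asxl1Y588X*Tg replicate 3 was lower than WT replicate 1. *Atf3* (chromosome 1, 191170296 to 191218039), a stress-responsive partner of JUN proteins and the scarcest of the 10 genes per length, ranged from 33.7 in *Kdm6b*Δ/+ replicate 2 to 241 in *Asxl1Y588X*Tg replicate 2. Its WT libraries held 201, 37.1, and 101, a 5.42-fold range. Neither gene passed the test in any comparison, and the smallest unadjusted edgeR p of either gene was 0.144, for *Fosb* in *Asxl1Y588X*Tg against WT.

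*Jun* (chromosome 4, 95049034 to 95052222, overlapping the antisense gene *Junos*) had normalized counts of 9459, 4622, and 5821 in WT and 7007, 4491, and 3419.9 in *Kdm6b*Δ/+. They were 7189.6, 11979.8, and 6703 in *Asxl1Y588X*Tg and 7561, 6223, and 3990.2 in *Asxl1Y588X*Tg *Kdm6b*Δ/+. *Jund* (chromosome 8, 70698949 to 70700616, overlapping the antisense gene *Gm11175*), the JUN protein known for steady expression, ranged from 625 to 1845 over all libraries, a 2.95-fold range against 3.50-fold for *Jun*. For both genes, the genotypes overlapped in every pair. In *Asxl1Y588X*Tg against WT the log2 fold change was 0.37 (standard error 0.34) for *Jun* and 0.35 (standard error 0.32) for *Jund*, and neither gene was called in any comparison. Without WT replicate 1 these values were 0.72 and 0.62, and without WT replicate 2 they were 0.17 and 0.16. Without *Asxl1Y588X*Tg replicate 2 they fell to 0.07 and 0.02.

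*Junb* (chromosome 8, 84974484 to 84978718, with exons that overlap *Prdx2* on the opposite strand) was closer between replicates than *Jun* or *Jund*. It had 3033, 1963, and 2769 normalized counts in WT and 2059.6, 1840.2, and 1633 in *Kdm6b*Δ/+. The *Asxl1Y588X*Tg libraries held 4459, 4285, and 3803 and the *Asxl1Y588X*Tg *Kdm6b*Δ/+ libraries 2577, 2246, and 2222. All 3 *Asxl1Y588X*Tg libraries were above all 9 other libraries, and the replicates were close, with a ratio of highest to lowest of 1.17 in *Asxl1Y588X*Tg and 1.16 in *Asxl1Y588X*Tg *Kdm6b*Δ/+. *Junb* fell in *Asxl1Y588X*Tg *Kdm6b*Δ/+ against *Asxl1Y588X*Tg, at a log2 fold change of −0.82 (standard error 0.08, edgeR adjusted p = 0.00183), or 1.76-fold lower. In *Asxl1Y588X*Tg against WT it was 1.61-fold higher, at a log2 fold change of 0.69 (standard error 0.15, edgeR adjusted p = 0.0596), and did not pass the adjusted threshold. By mean the order was *Asxl1Y588X*Tg (4183 ± 339.8, SD, n = 3), WT (2588 ± 557), *Asxl1Y588X*Tg *Kdm6b*Δ/+ (2348 ± 198), and *Kdm6b*Δ/+ (1844 ± 213). WT and *Asxl1Y588X*Tg *Kdm6b*Δ/+, neighbors in this order, overlapped and differed by a log2 fold change of −0.13 (standard error 0.14).

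**Figure D1:**
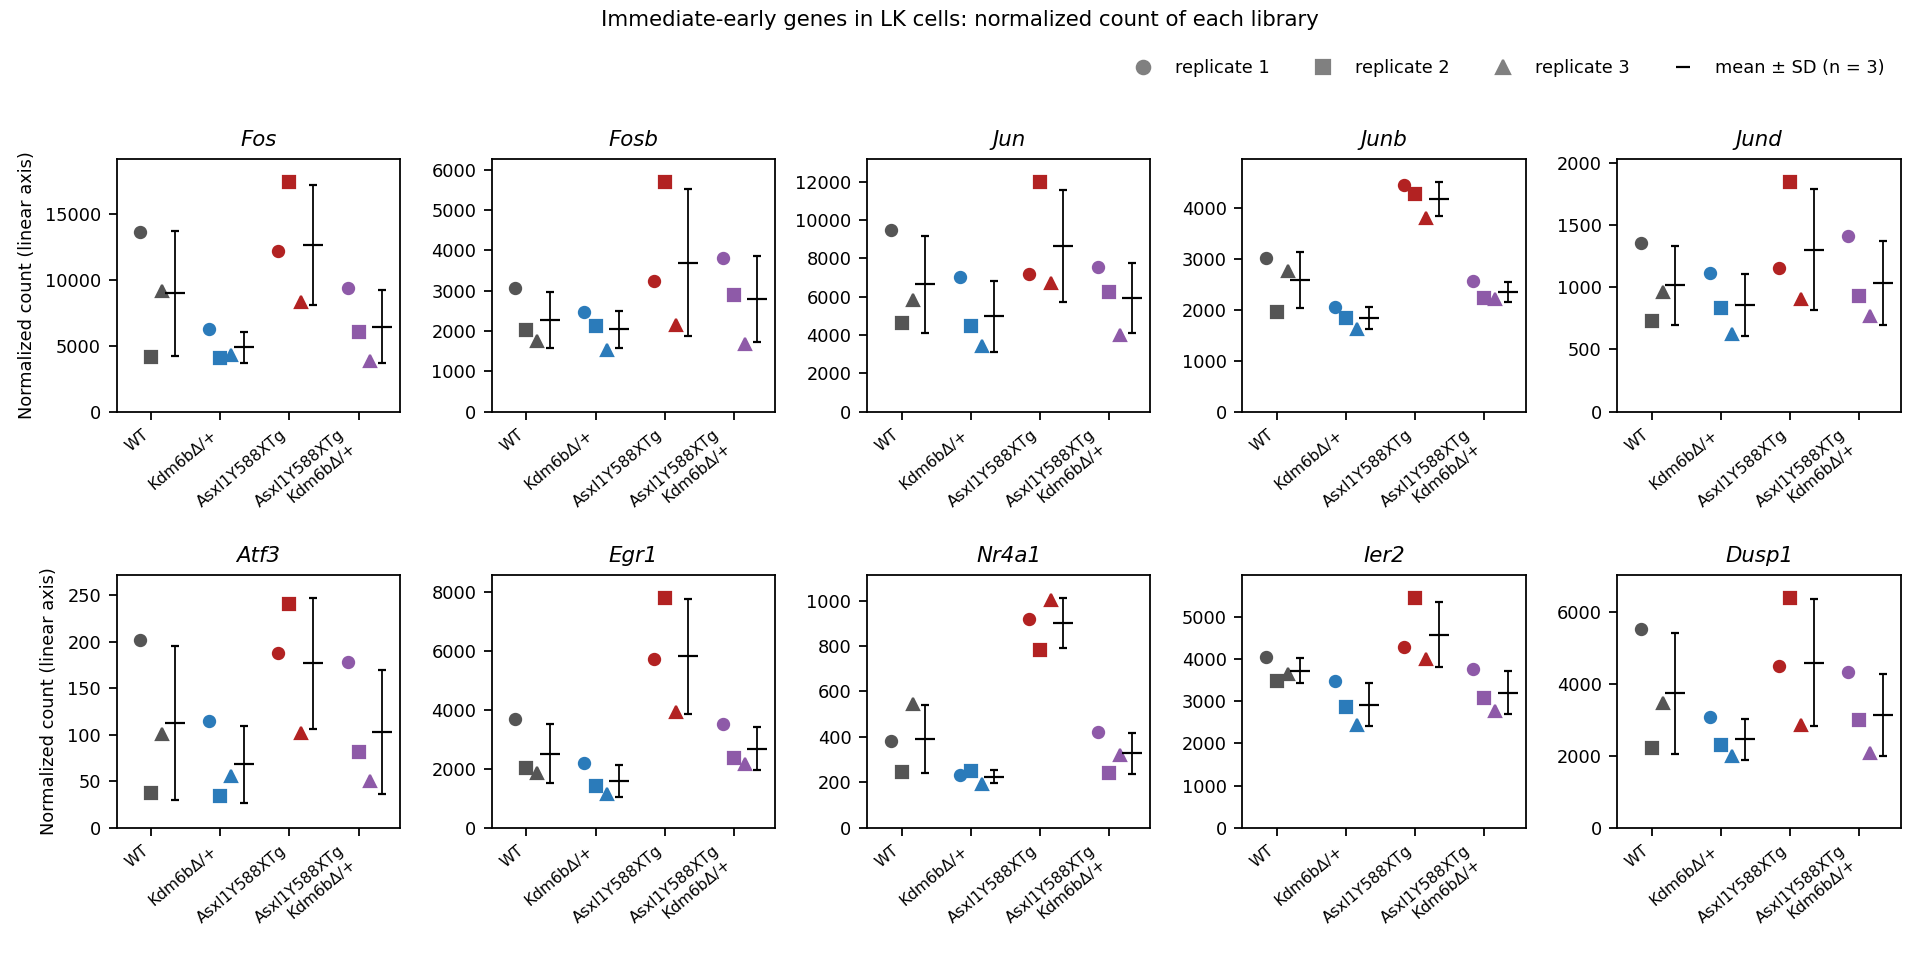
Normalized count (linear axis from 0) of the 10 immediate-early genes in each of 12 LK libraries, by genotype; circles, squares, and triangles are replicates 1, 2, and 3, and black bars are the mean ± SD of 3 mice. *Junb* and *Nr4a1* show all 3 *Asxl1Y588X*Tg libraries above all others, whereas *Fos*, with WT libraries from 4125 to 13671, overlaps in all 4 pairs tested.

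*Egr1*, on chromosome 18, is a direct target of ERK signaling. Its normalized count was 3678, 2011, and 1863 in WT and 2183, 1412, and 1127 in *Kdm6b*Δ/+. It was 5733, 7799, and 3909.8 in *Asxl1Y588X*Tg and 3519, 2369, and 2170.5 in *Asxl1Y588X*Tg *Kdm6b*Δ/+. The lowest *Asxl1Y588X*Tg library was above every library of the other genotypes, by a small margin over WT replicate 1. Against WT the log2 fold change of *Asxl1Y588X*Tg was 1.20 (standard error 0.36, edgeR adjusted p = 0.327), and it was −1.10 (standard error 0.33, edgeR adjusted p = 0.232) in *Asxl1Y588X*Tg *Kdm6b*Δ/+ against *Asxl1Y588X*Tg. By these values *Egr1* differed more between means than *Junb* did and still missed the threshold, with a larger spread between mice. Libraries of *Asxl1Y588X*Tg *Kdm6b*Δ/+, with a mean of 2686 ± 728 (SD, n = 3), and of WT, with 2517 ± 1008, overlapped, and the lowest mean was 1574 ± 546 in *Kdm6b*Δ/+.

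*Nr4a1* (chromosome 15, 101254269 to 101274795), a nuclear receptor induced by antigen receptor and cytokine signals, had 383, 246, and 546 normalized counts in WT and 232, 252, and 192 in *Kdm6b*Δ/+. The counts were 917, 785, and 1004 in *Asxl1Y588X*Tg and 422, 242, and 321 in *Asxl1Y588X*Tg *Kdm6b*Δ/+. Here too the 3 *Asxl1Y588X*Tg libraries lay above the other 9. *Nr4a1* fell in *Asxl1Y588X*Tg *Kdm6b*Δ/+ against *Asxl1Y588X*Tg, at a log2 fold change of −1.44 (standard error 0.20, edgeR adjusted p = 0.0232), the largest fall in this comparison among the 10. Against WT, *Asxl1Y588X*Tg cells had more *Nr4a1*, at a log2 fold change of 1.20 (standard error 0.26, edgeR adjusted p = 0.0799), short of the threshold. The order of means was *Asxl1Y588X*Tg (902 ± 110.2, SD, n = 3), WT, *Asxl1Y588X*Tg *Kdm6b*Δ/+ (328 ± 90.2), and *Kdm6b*Δ/+ (225 ± 30.5), and the last 3 overlapped with their neighbors.

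*Ier2* (chromosome 8, 84661331 to 84662852) was second to *Fos* per length in WT, at 2450.1 ± 195 normalized counts per kilobase (SD, n = 3), and was the steadiest of the 10 across all libraries. Its normalized count was 4060.3, 3489, and 3638 in WT, 3468, 2862, and 2436 in *Kdm6b*Δ/+, and 3761, 3082, and 2757 in *Asxl1Y588X*Tg *Kdm6b*Δ/+. In *Asxl1Y588X*Tg it was 4294, 5451, and 3999.9. The *Kdm6b*Δ/+ libraries lay below the WT libraries, and the *Asxl1Y588X*Tg *Kdm6b*Δ/+ libraries below the *Asxl1Y588X*Tg libraries, without overlap. The log2 fold changes in these comparisons, −0.35 (standard error 0.12) and −0.50 (standard error 0.14, edgeR adjusted p = 0.148), did not pass the threshold. *Dusp1* (chromosome 17, 26505590 to 26562128, with an exon that overlaps *Ergic1* on the opposite strand) ranged from 1998 in *Kdm6b*Δ/+ replicate 3 to 6406 in *Asxl1Y588X*Tg replicate 2. It overlapped between genotypes in every comparison, with WT libraries from 2219.8 to 5549.7 and *Asxl1Y588X*Tg libraries from 2876.

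Across the 10 genes, the comparison of *Asxl1Y588X*Tg *Kdm6b*Δ/+ with *Asxl1Y588X*Tg gave the only calls. Here 2 of 10 genes, *Junb* and *Nr4a1*, were called lower (edgeR adjusted p under 0.05 and a fold change above 1.5), where 1.59% of all genes tested were called lower and 1.74% in either direction. The groups did not overlap for *Junb*, *Egr1*, *Nr4a1*, and *Ier2*, 4 of 10 genes against 14.1% of all genes, and these 4 also had an unadjusted edgeR p under 0.05, as did 9.81% of all genes on the lower side. All 10 genes had a log2 fold change below 0, with a median of −0.64 against 0.00 for all genes tested. Without *Asxl1Y588X*Tg replicate 2 the median was −0.41, and *Fosb* and *Jund* were then above 0, and it was −0.41 without *Asxl1Y588X*Tg *Kdm6b*Δ/+ replicate 3. The *Junb* call held without each library in turn, whereas the *Nr4a1* call was lost without *Asxl1Y588X*Tg replicate 1 (edgeR adjusted p = 0.0674), *Asxl1Y588X*Tg replicate 3 (0.0512), or *Asxl1Y588X*Tg *Kdm6b*Δ/+ replicate 3 (0.0818). Both calls were lost when a term for Y-linked transcripts was added to a fit of all 12 libraries, with log2 fold changes of −0.85 for *Junb* (edgeR adjusted p = 0.0675) and −1.26 for *Nr4a1* (edgeR adjusted p = 0.162). Among libraries with Y-linked transcripts only *Asxl1Y588X*Tg replicate 2 stands against the 3 *Asxl1Y588X*Tg *Kdm6b*Δ/+ libraries, too few for a test, with 4285 normalized counts of *Junb* against at most 2577 and 785 of *Nr4a1* against at most 422.

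In *Asxl1Y588X*Tg against WT, 0 of the 10 genes were called by edgeR, where 1.61% of all genes tested were, 1.58% being called higher. An unadjusted edgeR p under 0.05 was found for 4 of the 10, *Junb*, *Egr1*, *Nr4a1*, and *Ier2*, against 7.3% of all genes on the higher side. All 10 log2 fold changes were above 0, with a median of 0.56 against −0.01 for all genes tested, and the groups did not overlap for *Junb*, *Egr1*, and *Nr4a1*, against 10.5% of all genes. The count depended on the fit: DESeq2 on the same 6 libraries called *Junb* and *Nr4a1* higher (DESeq2 adjusted p = 2.09e-04 and 2.97e-05), and so did edgeR on all 12 libraries. Without WT replicate 1 the median was 0.87 and edgeR called *Junb* alone (adjusted p = 0.0416), and without *Asxl1Y588X*Tg replicate 2 the median was 0.22 with none called. Without WT replicate 1 the log2 fold change was 0.92 for *Fos*, 1.58 for *Egr1* (edgeR adjusted p = 0.125), 1.18 for *Nr4a1* (0.343), and 0.36 for *Ier2* (0.354). With the Y-linked term the median fell to 0.26, with all 10 above 0. *Nr4a1* alone was called without WT replicate 2 (edgeR adjusted p = 0.0363), where the median was 0.23, and without WT replicate 3 (edgeR adjusted p = 0.0278).

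In *Kdm6b*Δ/+ against WT, 0 of 10 genes were called by edgeR or by DESeq2, where edgeR called 0.0948% of all genes tested and 0.019% lower. All 10 log2 fold changes were below 0, with a median of −0.55 against 0.00 for all genes. An unadjusted edgeR p under 0.05 was found for *Junb*, at a log2 fold change of −0.49 (standard error 0.15), *Nr4a1*, with −0.80 (standard error 0.25), and *Ier2*, with −0.35 (standard error 0.12), which makes 3 of 10 against 2.19% of all genes on the lower side. None of the 3 passed after adjustment. *Ier2* was the 1 gene whose groups did not overlap, against 4.8% of all genes on the lower side. Without WT replicate 1 the median was −0.25, and *Fosb* and *Jund* were then above 0. Without WT replicate 2 the median was −0.74, and *Junb* was called (log2 fold change −0.65, edgeR adjusted p = 0.0246).

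In *Asxl1Y588X*Tg *Kdm6b*Δ/+ against WT, 0 of 10 genes were called by edgeR or DESeq2, where edgeR called 0.215% of all genes, and 0 of 10 had an unadjusted edgeR p under 0.05, against 6.79% of all genes. The median log2 fold change was −0.14, with *Fosb*, *Jund*, and *Egr1* above 0 and 7 genes below it, and it was 0.17 without WT replicate 1 and −0.44, with 1 gene above 0, with the Y-linked term. Without WT replicate 2 it was −0.32, also with 1 gene above 0. The standard error was largest for *Atf3*, whose log2 fold change was −0.12 (standard error 0.64). The interaction asks whether losing 1 *Kdm6b* allele acts differently on the transgenic and the WT background, and it was also called for 0 of 10 genes by edgeR and DESeq2, where edgeR called 0.0126% of all genes, and 0 of 10 had an unadjusted edgeR p under 0.05, against 6.87% of all genes. It was −0.66 (standard error 0.37) on the log2 scale for *Nr4a1* and −0.34 (standard error 0.19) for *Junb*. Without WT replicate 2 these were −0.41 and −0.18, and without WT replicate 1 they were −0.64 and −0.47. The median interaction over the 10 genes was −0.14, −0.49 without WT replicate 1, −0.02 without WT replicate 2, and 0.20 without *Asxl1Y588X*Tg replicate 2. That the *Junb* and *Nr4a1* differences were larger with the transgene than without it was therefore not shown. The comparisons share the WT or the *Asxl1Y588X*Tg libraries and are not independent of each other.

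**Figure D2:**
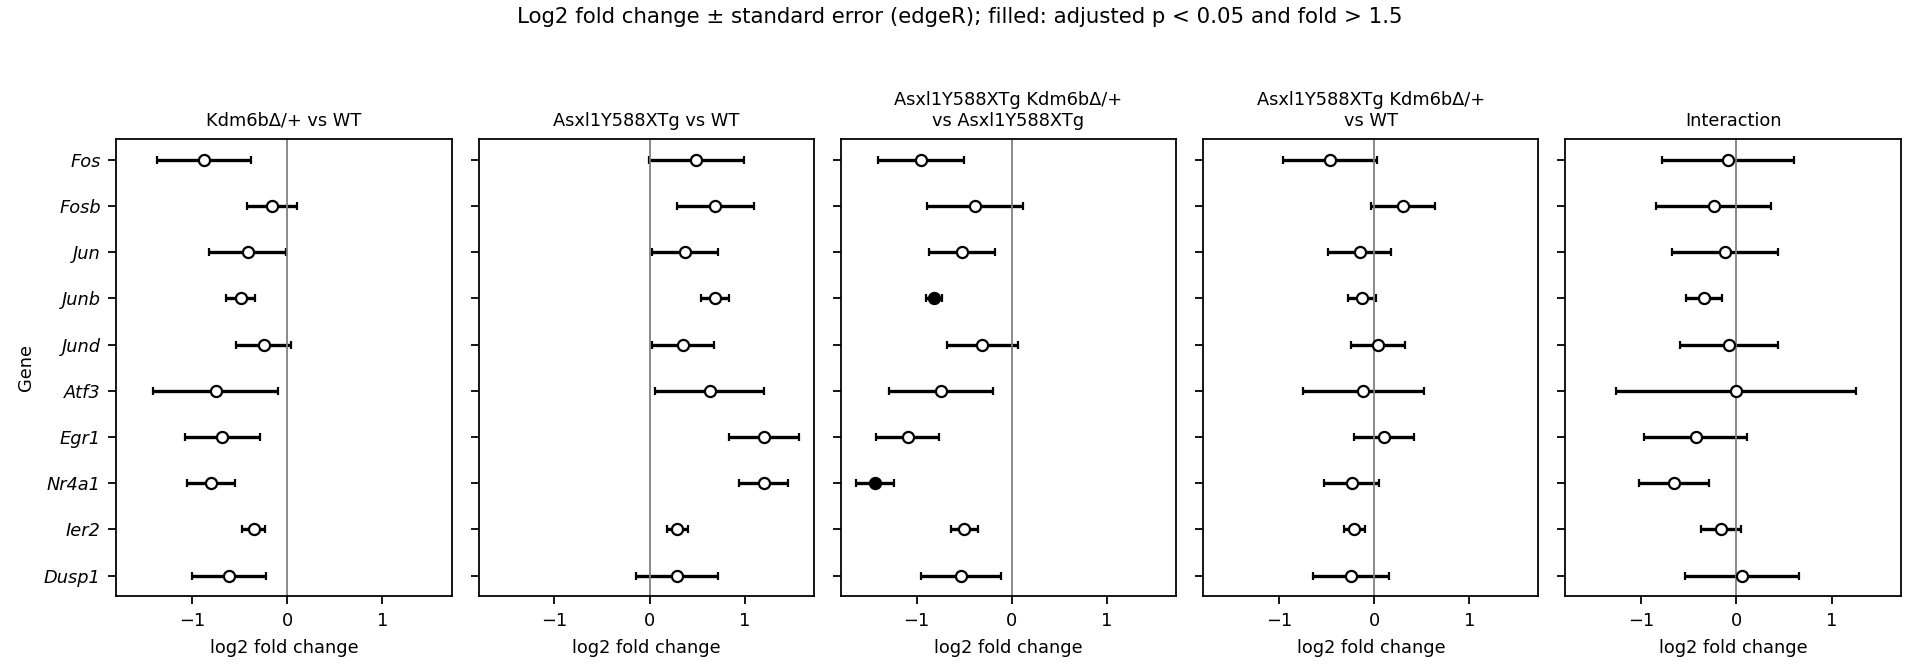
Log2 fold change of each of the 10 genes in the 5 comparisons, with bars of 1 standard error from edgeR's quasi-likelihood fit; filled points passed an adjusted p of 0.05 and a 1.5-fold change. The filled points are *Junb* at −0.82 and *Nr4a1* at −1.44, both in *Asxl1Y588X*Tg *Kdm6b*Δ/+ against *Asxl1Y588X*Tg.

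The 10 genes varied strongly between mice of 1 genotype. The SD of the log2 normalized count between replicates was 0.63 for *Fos*, 0.48 for *Egr1*, and 0.92 for *Atf3*, against a median of 0.14 for 9893 genes at or above an average of 100 normalized counts. *Fos* was more variable than 98.8% of these genes, *Dusp1* than 98.2%, *Jund* than 97.2%, and *Nr4a1* than 94.9%. *Junb*, at 0.20, and *Ier2*, at 0.21, were the least variable of the 10, at 77.4% and 79.8%. The SD between the 4 genotype means, which itself holds part of the spread between mice, was larger than the SD between replicates for *Junb*, *Nr4a1*, *Egr1*, and *Ier2*, and smaller for the other 6 genes. For *Nr4a1* it was 0.85 against 0.37, and for *Jund* 0.24 against 0.46.

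**Figure D3:**
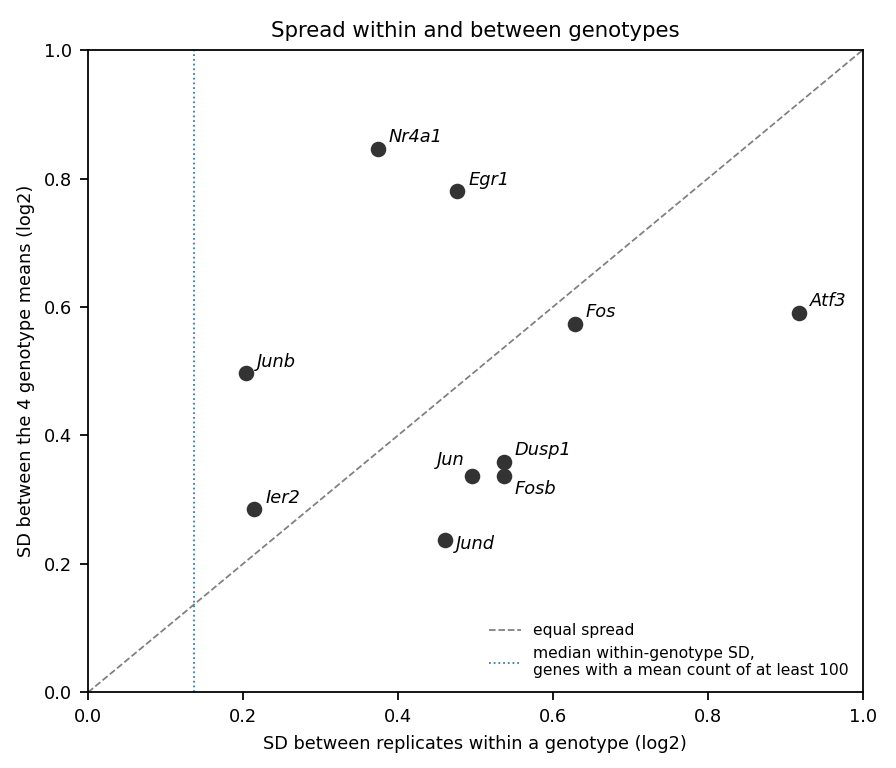
SD between replicates of a genotype (x axis, log2) against the SD between the 4 genotype means (y axis, log2) for the 10 genes; the dashed line marks equal values and the dotted line the median within-genotype SD of 9893 genes that averaged 100 normalized counts or more. *Nr4a1*, *Egr1*, *Junb*, and *Ier2* lie above the dashed line, and *Atf3*, at 0.92, has the largest spread between replicates.

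Much of this spread was shared, so that whole libraries were high or low. The mean deviation of the 10 genes from their averages over 12 libraries was 0.49, −0.54, and −0.01 on the log2 scale in WT replicates 1 to 3 and −0.12, −0.61, and −0.79 in *Kdm6b*Δ/+. It was 0.63, 1.04, and 0.25 in *Asxl1Y588X*Tg and 0.36, −0.18, and −0.52 in *Asxl1Y588X*Tg *Kdm6b*Δ/+. *Asxl1Y588X*Tg replicate 2 was the highest library for 8 of the 10 genes and among the highest 3 for all 10. WT replicate 1 was among the highest 3 for 6 genes, and *Kdm6b*Δ/+ replicate 3 among the lowest 3 for 8. WT replicate 1 (0.49) exceeded *Asxl1Y588X*Tg replicate 3 (0.25), so the averages of these genotypes overlapped. After the genotype means were subtracted, the median Pearson r of a gene with the other 9 over the 12 libraries was 0.91 for *Jund*, 0.90 for *Dusp1*, 0.87 for *Fos*, and 0.75 for *Junb*, but 0.30 for *Nr4a1*. These correlations describe libraries that share cells, RNA, and depth. *Nr4a1* was highest in *Asxl1Y588X*Tg replicate 3, where *Fosb*, *Jund*, and *Dusp1* were below their averages.

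**Figure D4:**
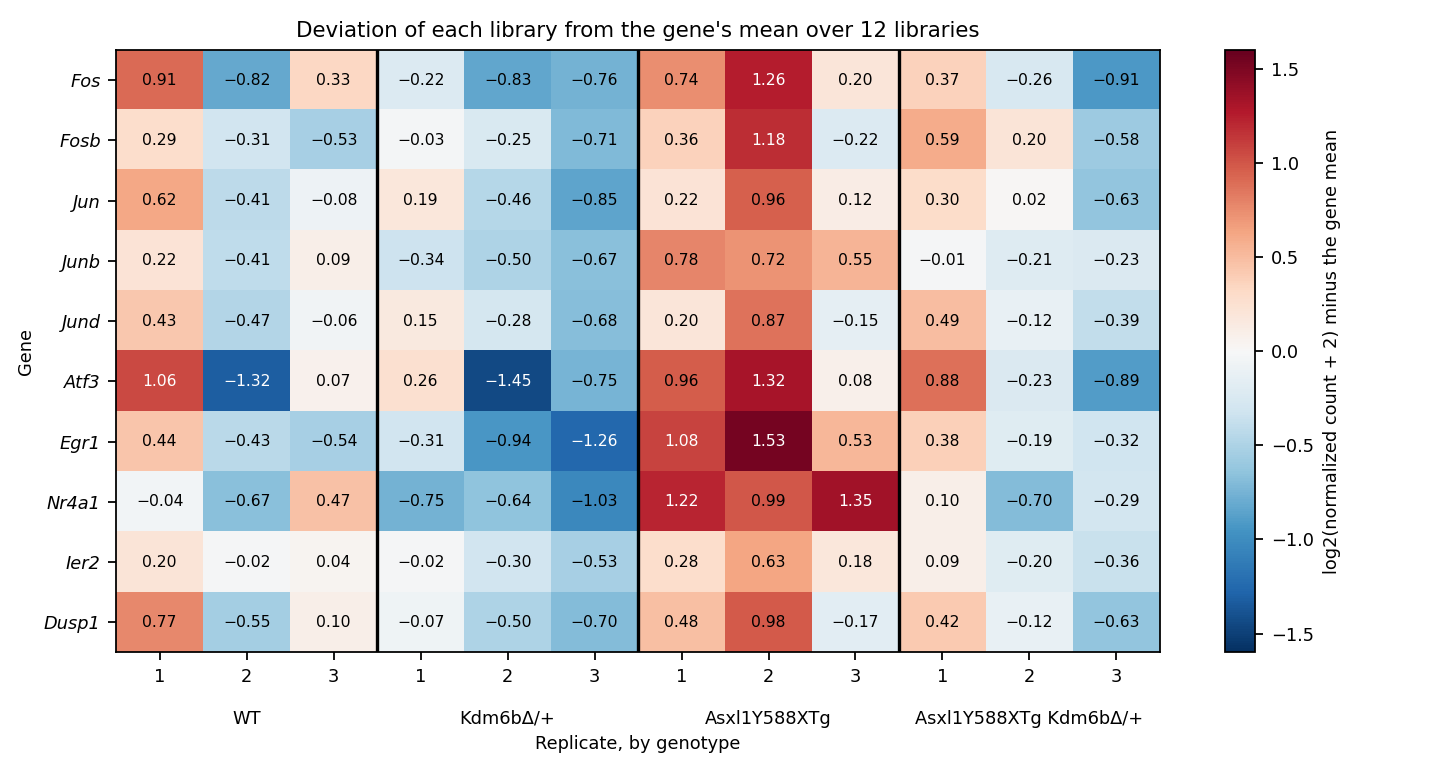
Deviation of each gene (rows) in each library (columns, by genotype and replicate) from the gene's mean over 12 libraries, on the scale of log2(normalized count + 2); red is higher and blue is lower. The *Asxl1Y588X*Tg replicate 2 column is red throughout, up to 1.53 for *Egr1*, and the *Kdm6b*Δ/+ replicate 3 column is blue throughout.

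Outside the 10 genes, the genes most like them were sought among 9883 others that averaged 100 normalized counts or more, by Pearson r with the mean standardized profile of the 10 over the 12 libraries. The highest was *Zfp36* (r = 0.985), which encodes a protein that directs AU-rich mRNAs to decay. It was followed by *Ppp1r15a* (0.932), a regulator of the eIF2α phosphatase, *Jcad* (0.906), *Ier3* (0.903), *Prickle1* (0.892), and *Dusp2* (0.891), a MAP kinase phosphatase. *Klf2* (0.887), a Krüppel-like transcription factor, *Btg2* (0.885), an antiproliferative gene, *Cdkn1a* (0.877), the CDK inhibitor p21, and *Pdzk1ip1* (0.877) completed the first 10. *Zfp36* had normalized counts of 9679.5, 5325, and 6904 in WT and 9949.9, 12223, and 7458 in *Asxl1Y588X*Tg. These ranges overlapped, as those of *Fos* and *Dusp1* did. Of the 100 most alike genes, 19 were in the lists described below, among them *Itga2b*, *Vwf*, and *Pf4* of the megakaryocyte list.

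The rest of the pathway was read from lists of related genes. In *Asxl1Y588X*Tg against WT, 1.58% of all genes tested were called higher. On the same side 7.3% had an unadjusted edgeR p under 0.05 and 10.5% did not overlap. In *Asxl1Y588X*Tg *Kdm6b*Δ/+ against *Asxl1Y588X*Tg the shares on the lower side were 1.59%, 9.81%, and 14.1%, in the same order. Of 7 other *Egr* and *Nr4a* genes and their co-repressors, 1 was called higher in *Asxl1Y588X*Tg against WT and 2 were called lower in *Asxl1Y588X*Tg *Kdm6b*Δ/+ against *Asxl1Y588X*Tg. All 7 were above 0 in the first comparison, with a median log2 fold change of 0.77, and below 0 in the second, with a median of −1.04. *Egr3*, a scarce relative of *Egr1*, had 38.4, 61.2, and 47.1 normalized counts in WT and 147, 116, and 106 in *Asxl1Y588X*Tg, where it rose at a log2 fold change of 1.33 (standard error 0.28, edgeR adjusted p = 0.0472). *Asxl1Y588X*Tg *Kdm6b*Δ/+ libraries had 69.3, 49.0, and 53.6, where *Egr3* fell against *Asxl1Y588X*Tg at a log2 fold change of −1.08 (standard error 0.22, edgeR adjusted p = 0.0355). *Nr4a2*, the nearest relative of *Nr4a1*, had 243, 183, and 209 in *Asxl1Y588X*Tg and 93.7, 76.0, and 86.7 in *Asxl1Y588X*Tg *Kdm6b*Δ/+, with no overlap and a log2 fold change of −1.29 (standard error 0.17, edgeR adjusted p = 0.00618). In WT *Nr4a2* had 104, 121, and 119.8, and its difference from *Asxl1Y588X*Tg missed the threshold (edgeR adjusted p = 0.0585). The *Egr3* calls were lost in *Asxl1Y588X*Tg against WT without WT replicate 1 (edgeR adjusted p = 0.0830) or *Asxl1Y588X*Tg replicate 2 (0.146), and in *Asxl1Y588X*Tg *Kdm6b*Δ/+ against *Asxl1Y588X*Tg without *Asxl1Y588X*Tg replicate 2 (0.0573). The log2 fold changes of *Egr3* were then, in the same order, 1.18, 1.38, and −1.12, about as large as with all libraries. Without WT replicate 1 the list median in *Asxl1Y588X*Tg against WT was 0.64. The co-repressor *Nab1*, the most abundant gene of this list, had a mean normalized count of 1296 in WT and 1434 in *Asxl1Y588X*Tg and was not called.

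Of 18 feedback regulators, *Socs3*, an inhibitor of cytokine receptor signaling, was the 1 called gene with all libraries. Its normalized count was 353, 228, and 271 in WT, 269, 155, and 215 in *Kdm6b*Δ/+, 1036, 732, and 757 in *Asxl1Y588X*Tg, and 269, 216, and 273 in *Asxl1Y588X*Tg *Kdm6b*Δ/+. It rose in *Asxl1Y588X*Tg against WT at a log2 fold change of 1.56 (standard error 0.19, edgeR adjusted p = 0.00489) and fell in *Asxl1Y588X*Tg *Kdm6b*Δ/+ against *Asxl1Y588X*Tg at a log2 fold change of −1.72 (standard error 0.16, edgeR adjusted p = 0.00248). The *Socs3* rise held without WT replicate 1, at 1.75 (edgeR adjusted p = 0.00575), and both calls held without *Asxl1Y588X*Tg replicate 2, where *Dusp4*, a phosphatase gene of the MAP kinase pathway, was also called lower in the second (−1.69, edgeR adjusted p = 0.0466). Over the 18 genes the median was 0.20 in the first comparison, 0.23 without WT replicate 1, and −0.30 in the second. Of 27 other immediate-early response genes, 0 were called in *Asxl1Y588X*Tg against WT, with a median of 0.17. An unadjusted edgeR p under 0.05 was found for 5 of them, against 7.3% of all genes on the higher side. In *Asxl1Y588X*Tg *Kdm6b*Δ/+ against *Asxl1Y588X*Tg, 3 of the 27 were called lower, against 1.59% of all genes. These were *Ier3* at a log2 fold change of −0.61 (standard error 0.12, edgeR adjusted p = 0.0306), *Plk2* with −0.76 (standard error 0.17, edgeR adjusted p = 0.0474), and *Ppp1r15a* with −1.03 (standard error 0.19, edgeR adjusted p = 0.0497). The *Ier3* and *Ppp1r15a* calls were lost without *Asxl1Y588X*Tg replicate 2 (edgeR adjusted p = 0.0799 and 0.117), at log2 fold changes of −0.53 and −0.94. *Mcl1*, the most abundant gene of this list and an inhibitor of apoptosis, was not called in any comparison.

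The 13 other AP-1 and small Maf genes and the 24 upstream kinases and transcription factors held 0 called genes in every comparison. The median log2 fold change of the other AP-1 genes was 0.14 in *Asxl1Y588X*Tg against WT, or 0.07 without WT replicate 1, and 0.02 in *Asxl1Y588X*Tg *Kdm6b*Δ/+ against *Asxl1Y588X*Tg, or −0.02 without *Asxl1Y588X*Tg replicate 2. *Fosl2*, their most abundant member, had 1996 ± 361 normalized counts (SD, n = 3) in WT and 2046 ± 216 in *Asxl1Y588X*Tg. For the upstream genes, which include the ERK, JNK, and p38 kinases, *Srf*, *Creb1*, and the ELK genes, the medians were −0.04 and 0.06, the first being −0.07 without WT replicate 1. In *Kdm6b*Δ/+ against WT, 0 genes of these 5 lists were called, and the medians were 0.07 for other AP-1 genes, −0.42 for *Egr* and *Nr4a* relatives, 0.01 for upstream genes, −0.28 for feedback regulators, and −0.22 for other immediate-early response genes. Without WT replicate 1 these were, in the same order, 0.01, −0.46, −0.02, −0.17, and −0.17. With all libraries, an unadjusted edgeR p under 0.05 on the lower side was found for 9 of 27 other immediate-early response genes and 4 of 18 feedback regulators. It was found for 1 of 24 upstream genes and 0 of the other AP-1 genes and *Egr* and *Nr4a* relatives, against 2.19% of all genes. The groups did not overlap for 7 of the 27 and 3 of the 18, against 4.8% of all genes. Against WT, 0 genes of the 5 lists were called in *Asxl1Y588X*Tg *Kdm6b*Δ/+, with list medians between −0.13 and 0.10, or −0.04 and 0.09 without WT replicate 1 and −0.24 and 0.15 without WT replicate 2.

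Because handling of cells is known to induce these genes, genes of the dissociation response were read in the same libraries. The heat shock and chaperone list held 16 genes, of which 14 were tested. Its mean deviation was 0.08, −0.33, and 0.59 on the log2 scale in WT replicates 1 to 3, 0.14, 0.14, and 0.00 in *Kdm6b*Δ/+, −0.07, 0.18, and 0.18 in *Asxl1Y588X*Tg, and −0.19, −0.31, and −0.40 in *Asxl1Y588X*Tg *Kdm6b*Δ/+. WT replicate 3 was highest for this list, whereas *Asxl1Y588X*Tg replicate 2 was highest for the 10 immediate-early genes. The inducible *Hspa1a* and *Hspa1b*, near-identical copies whose reads are hard to assign, had 83.4 and 229 normalized counts in WT replicate 3 and 43.3 and 70.4 in *Asxl1Y588X*Tg replicate 2. The summed normalized count of the list, led by *Hsp90ab1*, was 75531, 64591, and 88019 in WT and 72826, 74536, and 85824 in *Kdm6b*Δ/+. It was 73455, 76032, and 82344 in *Asxl1Y588X*Tg and 63101, 64062, and 59887 in *Asxl1Y588X*Tg *Kdm6b*Δ/+.

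In *Asxl1Y588X*Tg against WT, 0 of the 14 heat shock genes were called by edgeR, with 0 at an unadjusted p under 0.05 and a median log2 fold change of 0.03, or 0.00 without WT replicate 1, −0.15 without WT replicate 2, and 0.01 without *Asxl1Y588X*Tg replicate 2. In *Kdm6b*Δ/+ against WT the count was also 0, and the median was −0.03. In *Asxl1Y588X*Tg *Kdm6b*Δ/+ against *Asxl1Y588X*Tg, however, all 14 were below 0, with a median of −0.22, and 2 were called lower (13 of 14 below 0, and the same 2 called, without *Asxl1Y588X*Tg replicate 2). These were *Hsph1*, at a log2 fold change of −0.93 (standard error 0.09, edgeR adjusted p = 0.00169), and *Hspa5*, a chaperone of the endoplasmic reticulum, with −0.67 (standard error 0.10, edgeR adjusted p = 0.0120). Over all genes tested, 1.59% were called lower in this comparison. An unadjusted edgeR p under 0.05 was found for 6 of the 14, against 9.81% of all genes on the lower side. The groups did not overlap for 6 of the 14, against 14.1%. All 14 were again below 0 in *Asxl1Y588X*Tg *Kdm6b*Δ/+ against WT, with a median of −0.19 and 0 called. There 5 of the 14 had an unadjusted edgeR p under 0.05, against 6.79% of all genes in either direction. The hypoxia response list, with 11 of 12 genes tested, had a mean deviation of 0.01, 0.10, and −0.02 in WT, −0.12, −0.10, and −0.08 in *Kdm6b*Δ/+, 0.24, 0.04, and 0.22 in *Asxl1Y588X*Tg, and −0.20, −0.02, and −0.06 in *Asxl1Y588X*Tg *Kdm6b*Δ/+. Against WT, 7 of 11 were above 0 in *Asxl1Y588X*Tg, with a median of 0.05, or 0.01 without WT replicate 1 and 0.12 without *Asxl1Y588X*Tg replicate 2. With all libraries 3 were at an unadjusted edgeR p under 0.05, against 7.3% of all genes on the higher side, and 0 were called. Against *Asxl1Y588X*Tg, 8 of 11 were below 0 in *Asxl1Y588X*Tg *Kdm6b*Δ/+, with a median of −0.21, or −0.32 without *Asxl1Y588X*Tg replicate 2. With all libraries 4 were at an unadjusted edgeR p under 0.05, against 9.81% of all genes on the lower side. Here 1 gene was called: *Ddit4*, an inhibitor of mTORC1, fell in *Asxl1Y588X*Tg *Kdm6b*Δ/+ against *Asxl1Y588X*Tg from 269 ± 24.7 to 161 ± 17.3 normalized counts (SD, n = 3). The part of cell handling in the values of the 10 genes was not tested.

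**Figure D5:**
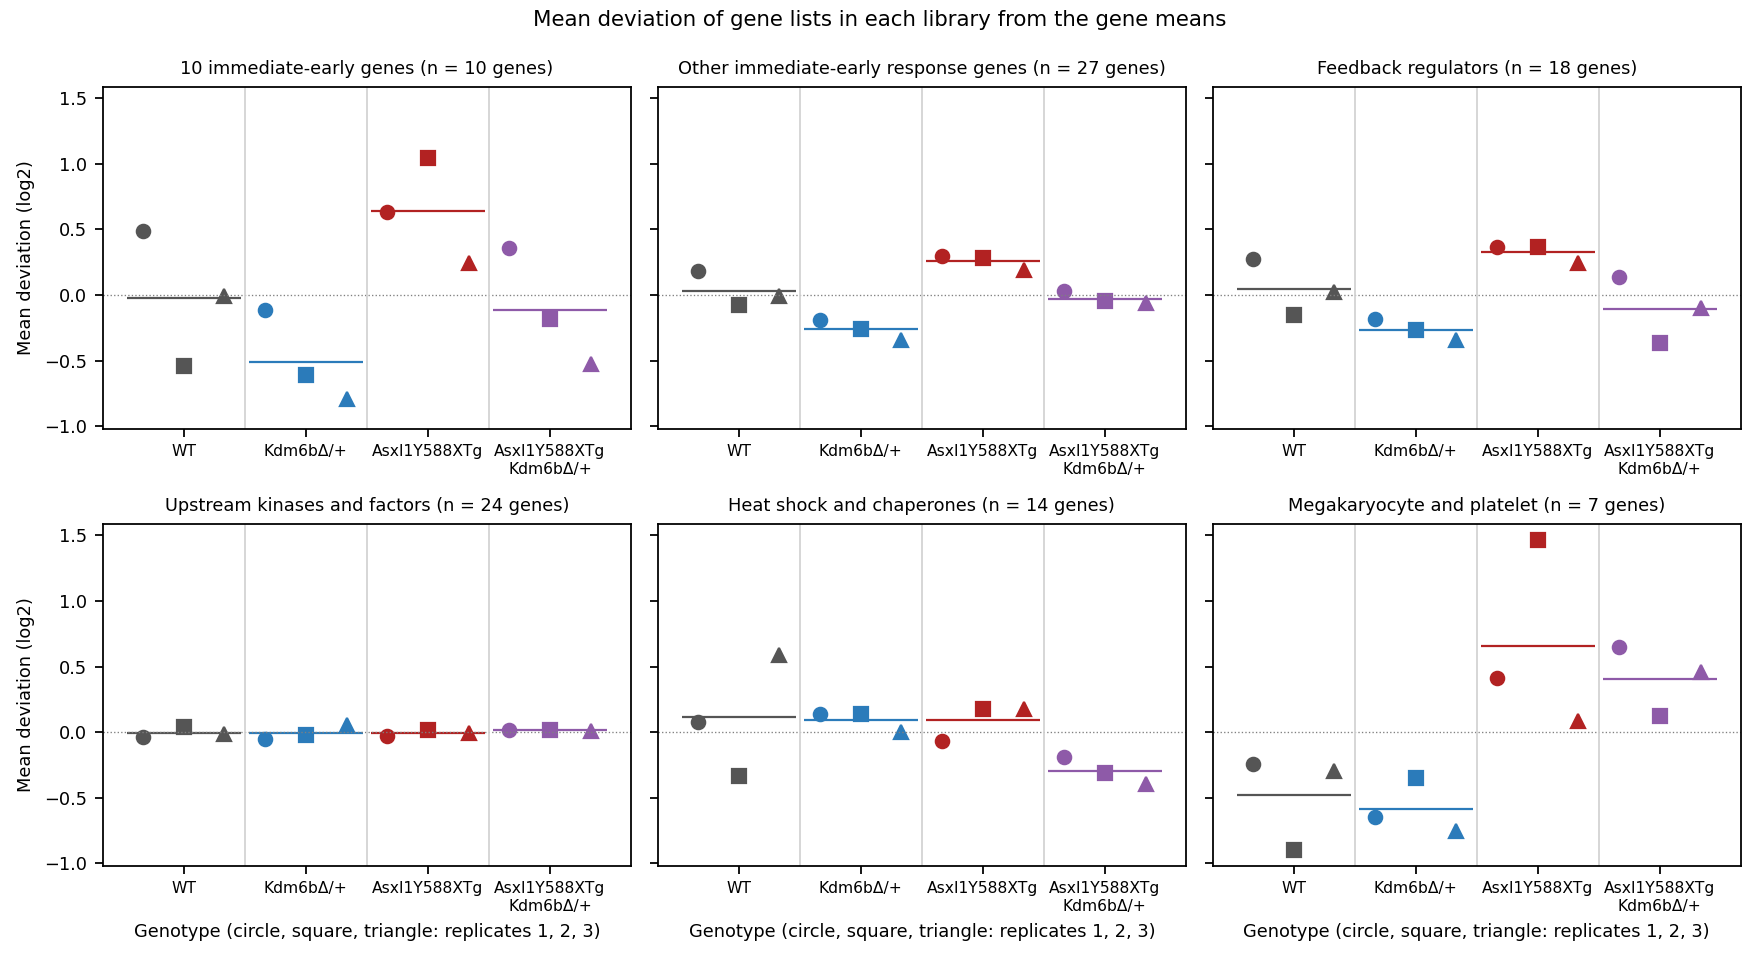
Mean deviation of 6 gene lists in each library from each gene's mean over 12 libraries (y axis, log2), by genotype; circles, squares, and triangles are replicates 1, 2, and 3, and lines are genotype means. The 10 immediate-early genes spread from −0.79 to 1.04, the heat shock list peaks at 0.59 in WT replicate 3, and the megakaryocyte list peaks, like the 10 genes, in *Asxl1Y588X*Tg replicate 2.

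Markers of other cells were compared in the same way, although lineage depletion had been applied to remove mature blood cells. The megakaryocyte and platelet list was, like the 10 genes, higher in *Asxl1Y588X*Tg than in WT, but it also stayed above WT in *Asxl1Y588X*Tg *Kdm6b*Δ/+, with a mean deviation of 0.41 against −0.48, where the 10 genes had −0.11 against −0.02. WT replicate 1, high for the 10 genes, was at −0.24 for this list. The summed normalized count of its 7 genes was 3893, 2917, and 3958 in WT, 2948, 3246, and 2671 in *Kdm6b*Δ/+, 8231, 15216, and 6139 in *Asxl1Y588X*Tg, and 6135, 4466, and 5916 in *Asxl1Y588X*Tg *Kdm6b*Δ/+. *Asxl1Y588X*Tg replicate 2 was thus highest here as well. *Vwf*, the von Willebrand factor gene and the most abundant of the list, had 1002, 492, and 949 in WT and 3138, 5848, and 2174 in *Asxl1Y588X*Tg, and no gene of the list was at 0 in all libraries. All 7 were above 0 in *Asxl1Y588X*Tg against WT, with a median log2 fold change of 1.23 and 0 called. Of these, 4 had an unadjusted edgeR p under 0.05, against 7.3% of all genes on the higher side. In *Asxl1Y588X*Tg *Kdm6b*Δ/+ against *Asxl1Y588X*Tg, 6 of 7 were below 0, with a median of −0.48, 0 at an unadjusted edgeR p under 0.05, and 0 called. Without *Asxl1Y588X*Tg replicate 2 these medians were 0.62 and 0.17, and *Ppbp* was then called higher in the second comparison (edgeR adjusted p = 0.0173); without WT replicate 1 the first was 1.35. *Ppbp* was called higher in *Asxl1Y588X*Tg *Kdm6b*Δ/+ against WT at a log2 fold change of 2.49 (standard error 0.36, edgeR adjusted p = 0.0241). This call was lost without WT replicate 1 (edgeR adjusted p = 0.0650), at a log2 fold change of 2.61. The part of these cells in the values of the 10 genes was not tested.

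Among the LK markers, *Gata2* and *Meis1*, transcription factor genes of stem and early progenitor cells, rose in *Asxl1Y588X*Tg against WT and fell in *Asxl1Y588X*Tg *Kdm6b*Δ/+ against *Asxl1Y588X*Tg. The 10 markers went both ways in the first comparison. Without *Asxl1Y588X*Tg replicate 2, 5 were above 0 and 5 below it, with a median of 0.01. Without WT replicate 1, 4 were above 0 and 6 below it, with a median of −0.06. With all libraries *Gata1* (−0.35), *Flt3* (−0.26), *Myb* (−0.19), *Cebpa* (−0.15), and *Spi1* (−0.04) were below 0 and not called. *Meis1* had 383, 404, and 527 normalized counts in WT, 1051, 1125, and 968 in *Asxl1Y588X*Tg, and 459.6, 441, and 583 in *Asxl1Y588X*Tg *Kdm6b*Δ/+. Unlike *Fos*, *Meis1* was close between *Asxl1Y588X*Tg replicates. The *Meis1* calls held without WT replicate 1 and without *Asxl1Y588X*Tg replicate 2. The call of the *Gata2* rise was lost without the latter (edgeR adjusted p = 0.112), at a log2 fold change of 0.69 against 0.73 with all libraries. Of 10 erythroid genes, 1 was called lower in *Kdm6b*Δ/+ against WT (*Hba-a2*) and 3 in *Asxl1Y588X*Tg *Kdm6b*Δ/+ against WT (*Hba-a2*, *Hbb-bt*, and *Alas2*), while 0 were called in the other pairs. Over all genes tested, 0.019% were called lower in *Kdm6b*Δ/+ against WT and 0.215% in either direction in *Asxl1Y588X*Tg *Kdm6b*Δ/+ against WT. The lists for neutrophils, monocytes and macrophages, B cells, T and NK cells, mast cells and basophils, and endothelial and stromal cells held 0 called genes in every comparison with all libraries, and without WT replicate 1 the NK cell gene *Ncr1* was called lower in *Asxl1Y588X*Tg *Kdm6b*Δ/+ against WT (−1.59, edgeR adjusted p = 0.0400). The endothelial and stromal list had higher values in *Asxl1Y588X*Tg than in WT, with 8 of 9 genes above 0, 2 at an unadjusted edgeR p under 0.05, and a median log2 fold change of 0.93, or 0.55 without WT replicate 1. Its mean deviation was −0.70, −0.58, and −0.18 in WT, −0.16, −0.28, and 0.09 in *Kdm6b*Δ/+, 0.48, 0.08, and 0.24 in *Asxl1Y588X*Tg, and 0.20, 0.01, and 0.80 in *Asxl1Y588X*Tg *Kdm6b*Δ/+. *Kdr*, an endothelial receptor gene, had 21.0, 20.8, and 39.6 normalized counts in WT and 118, 53.3, and 80.0 in *Asxl1Y588X*Tg (edgeR adjusted p = 0.106), and *Cdh5* and *Emcn* were also higher there without overlap, at means of 17.5 and 36.3 against 5.37 and 17.2. Over all genes tested, 10.5% did not overlap on the higher side in *Asxl1Y588X*Tg against WT, and 7.3% had an unadjusted edgeR p under 0.05. Summed counts of this list, led by *Pecam1*, were 1993, 2218, and 2313 in WT and 2778, 2498, and 2876 in *Asxl1Y588X*Tg. The T and NK cell median in *Asxl1Y588X*Tg against WT was 0.37, with 7 of 10 genes above 0, but 0.07 without WT replicate 1 and 0.69 without *Asxl1Y588X*Tg replicate 2. The B cell median was −0.60, and −0.34 and −0.39 without the same libraries. For erythroid genes it was −0.16 and turned to 0.11 without *Asxl1Y588X*Tg replicate 2, and for mast cells and basophils it was −0.15, or −0.04 without that library. Monocyte and macrophage genes had 0.11, and neutrophil genes −0.14. The medians in *Asxl1Y588X*Tg *Kdm6b*Δ/+ against *Asxl1Y588X*Tg were −0.81 for T and NK cells, 0.73 for B cells, 0.13 for neutrophils, −0.14 for mast cells and basophils, and −0.78 for erythroid genes. The monocyte and macrophage median was −0.03 and that of the endothelial and stromal list 0.19, against −0.21 and 0.11 without *Asxl1Y588X*Tg replicate 2. The summed neutrophil count was highest in WT replicate 2, where the 10 genes were low. The part of these cells in the values of the 10 genes was not tested either.

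Several lists depended on WT replicate 2. Without it the medians in *Asxl1Y588X*Tg against WT were 0.24 for other AP-1 genes, 0.02 for upstream genes, 0.13 for feedback regulators, and 0.16 for the hypoxia response. For the heat shock list, 13 of 14 genes were then below 0. Among the cell type lists, medians moved to 0.83 for T and NK cells, −0.32 for erythroid genes, 0.09 for mast cells and basophils, and 0.05 for neutrophils. The *Egr3*, *Socs3*, and *Meis1* calls held, the *Gata2* difference of 0.57 fell short of the fold threshold, and *Gata1* (−0.64, edgeR adjusted p = 0.0373) and *Klf1* (−0.75, edgeR adjusted p = 0.00859), erythroid transcription factor genes, were called lower. In *Kdm6b*Δ/+ against WT the heat shock median was −0.21 and that of other AP-1 genes 0.04, and *Klf2* (−1.17, edgeR adjusted p = 0.00206), *Ppp1r15a* (−1.09, edgeR adjusted p = 0.00721), and *Vwf* (−0.87, edgeR adjusted p = 0.0345) were called lower. The heat shock median was −0.37 in *Asxl1Y588X*Tg *Kdm6b*Δ/+ against WT, and *Hsph1*, *Hspa5*, *Hspa8*, and the erythroid gene *Slc4a1* were called lower beside the genes called with all libraries, at edgeR adjusted p = 0.00978, 0.0374, 0.0457, and 0.0457.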

How the data were processed

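RNA from LK cells of 12 mice was sequenced in 1 library per mouse. Per the methods, the authors trimmed reads with Trimmomatic, aligned them with STAR to mm10, and counted them per gene with HTSeq. Raw counts were deposited, as whole numbers that had not been normalized, and 0 per-sample columns were left out. The columns of *Kdm6b*Δ/+ and *Asxl1Y588X*Tg bear shortened names and were matched to the sample titles by those names. The methods name a stranded KAPA kit and a HiSeq sequencer and the labels an NEB kit and a NextSeq sequencer. Annotation and strand setting are not given in the sources used here, so counts of genes that overlap others are uncertain.

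Counts were tested in R 4.3.3 with edgeR 4.0.16 (filterByExpr over 4 genotypes, TMM, robust quasi-likelihood test). Each pair was fitted to its 6 libraries and the interaction to all 12, with Benjamini-Hochberg adjustment over 15825 genes. A gene was called at an adjusted p under 0.05 and a fold change above 1.5. Standard errors are the log2 fold change divided by the square root of F. An exact permutation test of 3 against 3 libraries cannot give a p below 0.1. A normalized count is the count over the effective library size, times the average library size, and deviations and likeness used log2(normalized count + 2). Positions and exon lengths are from GENCODE vM21 (mm10). Each library's precision is set by its 14451522 to 23482563 counted reads, and p-values by the spread between mice.

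The 10 genes and all lists were chosen with earlier results of these data known. Named genes were drawn from the 10, *Kdm6b*, *Asxl1*, *Kit*, the called, the 3 most abundant, and the most changed genes of each list, and the 10 most alike genes. One LK marker is not reported here. *Hspa1a*, *Hspa1b*, *Itga2b*, *Pf4*, *Kdr*, *Cdh5*, *Emcn*, *Dusp4*, *Ncr1*, *Klf2*, *Hspa8*, *Gata1*, *Klf1*, *Slc4a1*, *Flt3*, *Myb*, *Cebpa*, and *Spi1* were named after their values were seen. Lists covered AP-1, *Egr* and *Nr4a* relatives, upstream and feedback genes, other immediate-early genes, heat shock, hypoxia, and cell types. Alternatives were DESeq2 1.42.0, joint fits, RLE scaling, no filter, a mean count of at least 50, a replicate block, a Y-linked term, and leaving out each library. Lists were refitted without WT replicate 1, WT replicate 2, and *Asxl1Y588X*Tg replicate 2 in turn, alternatives chosen after seeing the data. The procedure was tested on simulated data.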

Additional observations from a re-analysis of the deposited data

How the results depend on the processing

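The number of the 10 genes called was recomputed under 8 alternatives for each pair of genotypes and 6 for the interaction, and without each library in turn. In *Asxl1Y588X*Tg *Kdm6b*Δ/+ against *Asxl1Y588X*Tg it was 0 with the Y-linked term, 2 with the other 7, and 1 to 2 without 1 library. In *Asxl1Y588X*Tg against WT it was 2 with DESeq2 on 6 or 12 libraries, edgeR on 12, no expression filter, and the Y-linked term, 1 with the replicate block, 0 with RLE scaling and the stricter filter, and 0 to 1 without 1 library. In *Kdm6b*Δ/+ against WT it was 1 with no filter (*Nr4a1*), 1 with the block (*Egr1*), and 0 to 1 without 1 library. In the remaining comparisons it was 0 throughout. Without 1 library the median over the 10 genes ran, on the log2 scale, from −0.77 to −0.25 in *Kdm6b*Δ/+ against WT, −0.35 to 0.17 in *Asxl1Y588X*Tg *Kdm6b*Δ/+ against WT, and −0.49 to 0.20 for the interaction. Replicate numbers did not pair the libraries: deviations from genotype means had a median r of −0.04 over 18 pairs with the same number, from −0.12 to 0.08. Over all genes, the block gave 58 genes called lower in *Asxl1Y588X*Tg *Kdm6b*Δ/+ against *Asxl1Y588X*Tg in place of 252, 96 called higher in *Asxl1Y588X*Tg against WT in place of 250, and in *Asxl1Y588X*Tg *Kdm6b*Δ/+ against WT 46 higher and 20 lower in place of 23 and 11. DESeq2 called 455 higher in *Asxl1Y588X*Tg against WT and 391 lower in *Asxl1Y588X*Tg *Kdm6b*Δ/+ against *Asxl1Y588X*Tg. In the latter comparison, edgeR on all 12 libraries called 150 lower and 12 higher, and 43 lower and 5 higher with the Y-linked term. In *Asxl1Y588X*Tg against WT the same fits called 430 higher without the term and 329 with it. Log2 fold changes of single genes turned sign with the Y-linked term in *Asxl1Y588X*Tg *Kdm6b*Δ/+ against WT, to −0.21 for *Fosb*, −0.43 for *Jund*, −0.37 for *Egr1*, and 0.0235 for *Nr4a1*. The interaction of *Atf3*, close to 0, became 0.00835 with RLE scaling, 0.00860 with no filter, 0.0146 with the stricter filter, and 0.13 with the Y-linked term. Without 1 library, signs turned within −0.31 to 0.11 for *Fosb* and −0.48 to 0.0166 for *Jund* in *Kdm6b*Δ/+ against WT, −0.0179 to 0.68 for *Dusp1* in *Asxl1Y588X*Tg against WT, and −0.67 to 0.0691 for *Fosb* and −0.60 to 0.0261 for *Jund* in *Asxl1Y588X*Tg *Kdm6b*Δ/+ against *Asxl1Y588X*Tg. In *Asxl1Y588X*Tg *Kdm6b*Δ/+ against WT the ranges were −0.37 to 0.19 for *Jun*, −0.29 to 9.22e-04 for *Junb*, −0.25 to 0.31 for *Jund*, −0.77 to 0.61 for *Atf3*, −0.14 to 0.48 for *Egr1*, −0.47 to 0.0760 for *Nr4a1*, and −0.55 to 0.15 for *Dusp1*. For the interaction they were −0.53 to 0.25 for *Fos*, −0.53 to 0.22 for *Fosb*, −0.47 to 0.21 for *Jun*, −0.37 to 0.26 for *Jund*, −0.72 to 0.58 for *Atf3*, and −0.34 to 0.38 for *Dusp1*. The cause of these changes was not tested. With 3 mice a genotype and the spread given for these genes, the standard errors limit what could be detected. On simulated data for all 15825 genes, and not for the 10 alone, 22.4% of genes changed 1.5-fold were called in *Asxl1Y588X*Tg against WT. This rose to 58.2% of genes changed 2-fold and 84.8% of genes changed 4-fold. For the interaction the shares were 5.97%, 46.3%, and 77.3%. All 10 genes had an SD between replicates above the median of 0.14, from 0.20 for *Junb* to 0.92 for *Atf3*. The share called at such a spread was not tested.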

Other observations

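In the interaction across all 12 libraries, all 7 *Egr* and *Nr4a* relatives and co-repressors were below 0, with a median of −0.65 on the log2 scale against −0.02 for all genes tested, and 0 were called by edgeR, with 1 at an unadjusted p under 0.05. The median was −0.40 without *Asxl1Y588X*Tg replicate 2 and −0.54 without WT replicate 1, with all 7 still below 0. The gene at an unadjusted p under 0.05 was *Nr4a2*, with −0.85 (standard error 0.27, edgeR adjusted p = 0.470). Over all genes tested, 6.87% had an unadjusted edgeR p under 0.05 for the interaction. *Socs3* had an interaction of −1.31 (standard error 0.29, edgeR adjusted p = 0.238), larger than that of any of the 10 immediate-early genes, and was not called either. In *Kdm6b*Δ/+ cells the normalized count of *Socs3* averaged 213 against 284 in WT, and in *Asxl1Y588X*Tg *Kdm6b*Δ/+ cells 253 against 841 in *Asxl1Y588X*Tg.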
